A study of Bos taurus with 16 samples.

Results

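The genes of glycolysis and glycogen metabolism were examined in the spleen of beef steers that differed in weight gain and feed intake. The set comprised 34 listed genes of glucose uptake, glycolysis, the pyruvate branch point and glycogen handling, and a gene was measured where a transcript cluster of the array carried its symbol and no other gene. Of these, 33 were found through 35 transcript clusters, among 24651 rows tested in all. HK1 and LDHA had 2 clusters each, which were averaged, and GYS1, the muscle-type glycogen synthase, was left out because its cluster was annotated with 2 gene entries, which share that symbol but have separate Entrez identifiers and may or may not be 1 gene. The genes were listed by function.

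Glycolysis breaks glucose down to pyruvate, which is either reduced to lactate or oxidized in mitochondria. Glucose enters cells through the SLC2A transporters, is trapped by the hexokinases, and is committed to the pathway by phosphofructokinase, which is in turn controlled by the PFKFB enzymes. Glycogen is a branched store of glucose that is started on glycogenin, extended and branched by its synthetic enzymes, and opened again by the phosphorylases. Lymphocytes and phagocytes, the main cells of white and red pulp, are known to raise glycolysis when they are activated.

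Spleen RNA was taken from 16 steers and each sample was hybridized to 1 array. High or low gain was crossed with high or low intake, which gave 4 groups of 4 animals, and a group is called by its gain first and its intake second (low gain-high intake, for example). The animals were crossbred, entered the trial at about a year of age and had free access to the same concentrate ration for 84 days. Those farthest from the mean of gain and intake in each quadrant were taken, after animals with health problems were set aside. Where a sire breed was over-represented in a quadrant, the next steer in rank from another breed was taken instead. The ration of all animals held a supplement with monensin. No treatment was given to some groups and not to others, so the groups differ in gain and intake as measured, and breed differed among them. Breed, slaughter day and array strip of each steer are not in the sample labels and could not be entered as terms. The paper states that spleen was collected after bleeding, from animals processed in turn on each day. It also states that feed was available up to the morning of slaughter, and that RNA integrity varied between samples. The delay, last meal and RNA integrity of each steer were not entered either, and their part in the values was not tested.

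Levels are log2 expression values after RMA, a method that corrects, normalizes and summarizes probe signals, so 1 unit is a doubling of the processed signal. Before RMA the authors applied SST, which stretches the spread of signals to decompress fold changes. The folds given here are therefore folds of that signal. Each steer is a separate animal. The medians of the arrays lay between 8.24 and 8.37, and pairs of arrays correlated between 0.955 and 0.986. The arrays of high gain-high intake steer 4 and low gain-high intake steer 2 had the lowest array weights, 0.524 and 0.601. Such weights were estimated in limma from the same values, by how far each array lay from its group mates over the rows. They are no separate measure of quality, and the authors report that every array passed their imaging check. Counts and correlations that changed without these arrays are given both ways. Markers of B cells (8 of 8 found), T cells (8 of 8) and macrophages (12 of 12) lay above the median row, 8.29, while 0 of 8 skeletal muscle and 0 of 6 adipocyte markers did. Of the 33 glycolysis and glycogen genes, 25 lay above the median row. The neuronal enolase ENO2, at a mean of 6.04, lay below the lower quartile of rows, 7.04. Signals of different probes are not compared as amounts of RNA.

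No gene of the set differed among the 4 groups after adjustment. The F test of limma gave 0 of 33 genes at an adjusted P under 0.05, and 0 of all 24651 rows. At an unadjusted P under 0.05, the F test called 2 genes, GYG1 and PFKFB2, which is 6.06% of the set beside 4.71% of all rows. Calls below are at this unadjusted threshold unless stated, and a share near that of all rows is not a result about the set.

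Glycogenin, the product of GYG1, is the protein primer on which a glycogen particle is built. Its expression was higher in the steers with high intake, by 0.46 on the log2 scale (1.38-fold). In the high gain-high intake steers the values were 11.00, 10.78, 11.20 and 11.30, and in the low gain-high intake steers 11.14, 10.74, 11.38 and 11.50. In the high gain-low intake steers they were 10.68, 10.66, 10.66 and 10.73, and in the low gain-low intake steers 10.51, 10.70, 10.39 and 11.02. The high gain-low intake animals were the tightest group and lay below every high intake animal, while low gain-low intake steer 4 lay above 3 high intake animals, so the intake groups overlapped. Mean expression was 11.13 ± 0.27 with high intake and 10.67 ± 0.18 with low intake (SD, n = 8 each). The intake difference had an SE of 0.12 and a 95% interval of 0.20 to 0.73, with an unadjusted limma P = 0.00199, an adjusted P = 1 over all rows, and an exact two-sided permutation P = 0.00155.

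The same gene was called in contrasts of single groups against the mean of the rest. In low gain-high intake steers GYG1 was higher by 0.39 (SE 0.14, unadjusted limma P = 0.0165, exact permutation P = 0.0352), and in low gain-low intake steers it was lower by 0.33, that is a difference of -0.33 (SE 0.14, unadjusted limma P = 0.0367, exact permutation P = 0.0885). These contrasts share the steers of the intake comparison and add no independent evidence. The former lost its call in limma without low gain-high intake steer 3, at 0.32, or steer 4, at 0.28. The latter lost it in 7 of the 16 fits that left out a steer, with differences from -0.45 to -0.24 over all 16.

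**Figure D1:**
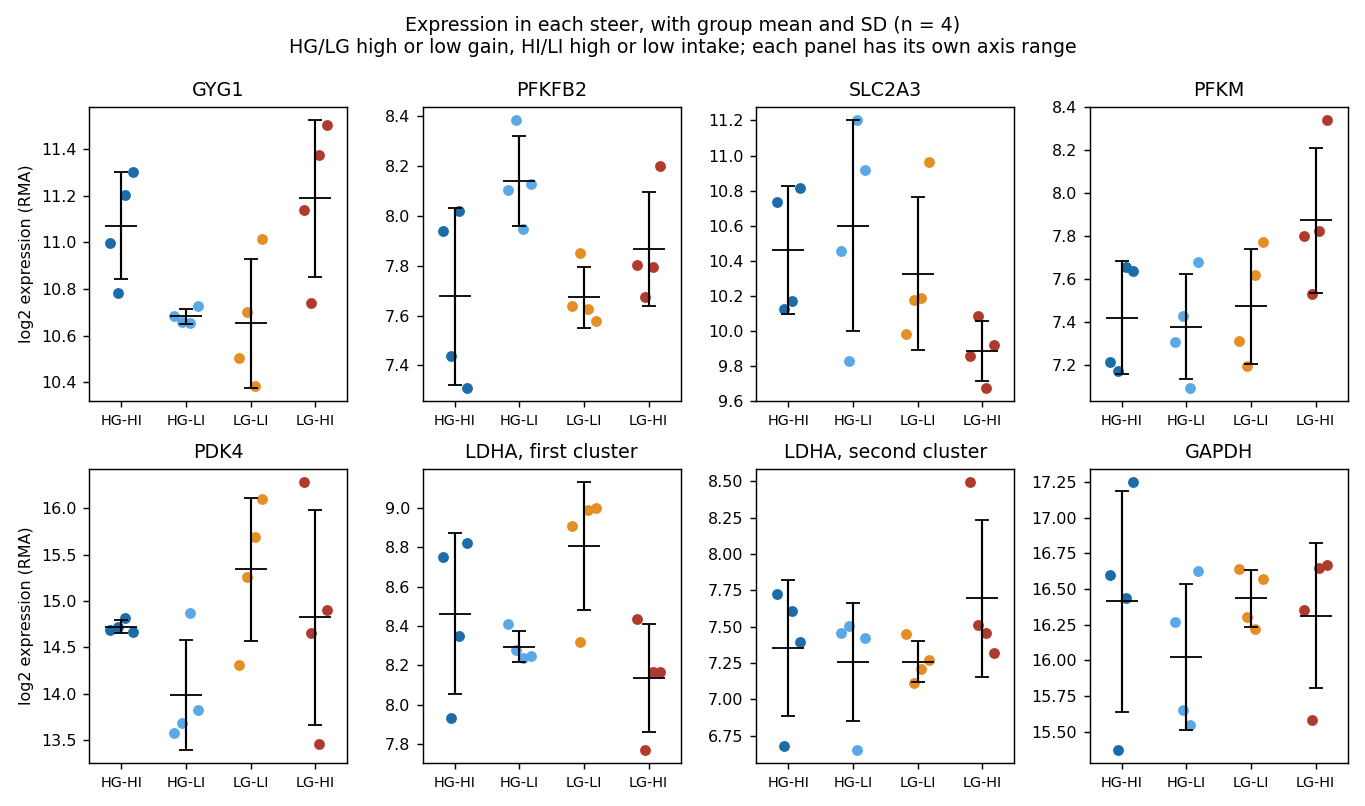
Log2 expression after RMA (vertical axis, a separate range in each panel) for GYG1, PFKFB2, SLC2A3, PFKM, PDK4, the 2 LDHA clusters and GAPDH in every steer, by group (HG and LG, high and low gain; HI and LI, high and low intake). Points are steers, and bars are the group mean with its SD (n = 4). For GYG1 the 4 high gain-low intake steers sit between 10.66 and 10.73, and for PDK4 the 4 high gain-high intake steers sit between 14.66 and 14.82.

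Across intake as a whole, GYG1 was the 1 gene called of 33, beside 3.4% of all rows. Of the set, 22 genes had a higher and 11 a lower mean with high intake, beside 12609 higher and 12021 lower of all 24651 rows. The median difference was 0.11 beside 0.0037 for all rows. Many of these genes varied together between animals, as given below, so the 22 are not separate counts. Among glycogen genes, PYGL, the liver-type glycogen phosphorylase that releases glucose units from the store, was 0.29 higher with high intake (95% interval -0.10 to 0.68). PGM1, a phosphoglucomutase that links glucose phosphates to glycogen, was 0.16 higher (95% interval -0.11 to 0.42). GBE1, the branching enzyme, and UGP2, which makes the activated glucose for glycogen synthesis, had lower means with high intake, with differences of -0.16 (95% interval -0.59 to 0.28) and -0.22 (95% interval -0.54 to 0.10). PGM2, a mutase of sugar phosphates, and PYGB, the brain-type phosphorylase, differed by 0.13 (95% interval -0.28 to 0.55) and 0.04 (95% interval -0.34 to 0.42). These 6 glycogen genes were not called in any contrast.

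Smooth muscle markers were also higher with high intake, in the means of 7 of the 7 markers found, and 2 of them were called, beside 3.4% of all rows. The mean level of the list was 13.47 with high and 12.92 with low intake. It ranged from 12.54 to 14.43 in high gain-high intake, 12.52 to 13.02 in high gain-low intake, 12.34 to 13.80 in low gain-low intake and 12.51 to 14.60 in low gain-high intake steers. Proliferation markers were higher with high intake in 9 of 11, with 1 called, and their list had a mean of 10.53 with high and 10.34 with low intake. The part of smooth muscle or dividing cells in the GYG1 difference was not tested. In whole spleen a change in cell make-up and a change in RNA per cell cannot be told apart.

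PFKFB2 encodes a bifunctional kinase and phosphatase that sets the level of an allosteric activator of phosphofructokinase, and it was the gene with a gain by intake interaction. Within high gain animals its mean was lower with high intake, by a difference of -0.46, and within low gain animals it was 0.20 higher with high intake. The values were 7.94, 7.44, 8.02 and 7.31 in high gain-high intake steers and 8.10, 8.38, 7.95 and 8.13 in high gain-low intake steers. They were 7.64, 7.85, 7.63 and 7.58 in low gain-low intake steers and 7.80, 7.67, 7.80 and 8.20 in low gain-high intake steers. The high gain-low intake animals were the highest as a group, yet low gain-high intake steer 4 and high gain-high intake steer 3 lay above the lowest of them. Group means were 7.68 ± 0.35, 8.14 ± 0.18, 7.67 ± 0.12 and 7.87 ± 0.23 in that order (SD, n = 4).

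The interaction for PFKFB2, that is the first of these intake differences less the other, was -0.66 (SE 0.24, unadjusted limma P = 0.0154, adjusted P = 1, exact permutation P = 0.0180). It was the 1 gene of 33 called, beside 4.64% of all rows. High gain-low intake steers were 0.40 above the mean of the other 3 groups (1.32-fold, SE 0.14, unadjusted limma P = 0.0113, adjusted P = 0.863, exact permutation P = 0.00989). Without high gain-low intake steer 2 this difference was 0.32 and was no longer called. Of 10 erythroid markers, 1 had a positive interaction and 1 was called negative, and 7 were higher in high gain-low intake steers, with 1 called. Only 2 of the 10 lay above the median row, and HBM, SLC4A1 and KLF1 lay below the lower quartile. The mean level of the list ran from 7.33 to 7.95 in high gain-high intake, 7.24 to 8.32 in high gain-low intake, 7.48 to 7.80 in low gain-low intake and 7.57 to 8.36 in low gain-high intake steers, and its part in the PFKFB2 differences was not tested.

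The related genes did not share this pattern of calls. PFKFB3, an inducible form of the same enzyme with high kinase activity, had an interaction of 1.45 with a 95% interval of -0.38 to 3.28. Its values in the high gain-high intake group were 10.95, 10.31, 10.26 and 13.26, so steer 4 of that group stood far above the rest. PFKFB4 had an interaction of 0.06 (95% interval -0.49 to 0.61). Differences between the PFKFB genes were not tested.

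PFKM, the muscle-type phosphofructokinase, was higher in the low gain-high intake steers. The values there were 7.80, 7.53, 7.83 and 8.34. They were 7.21, 7.18, 7.65 and 7.64 in high gain-high intake, 7.31, 7.43, 7.10 and 7.68 in high gain-low intake, and 7.31, 7.19, 7.62 and 7.77 in low gain-low intake steers. Apart from steer 2, each low gain-high intake animal exceeded all 12 of the others. The difference from the rest was 0.45 (1.37-fold, SE 0.16, unadjusted limma P = 0.0124, adjusted P = 1, exact permutation P = 0.00989). The call was lost, at 0.30, when low gain-high intake steer 4 was left out. PFKL and PFKP, the liver and platelet types, differed by 0.08 (95% interval -0.20 to 0.36) and -0.09 (95% interval -0.61 to 0.43) in the same contrast. Smooth muscle markers were higher in these steers for 7 of 7, erythroid markers for 10 of 10 and proliferation markers for 10 of 11, with 0 of any called. Their part in the PFKM difference was not tested. The skeletal muscle list, with 0 of 8 markers above the median row and 3 below the lower quartile, had a mean of 7.25 in low gain-high intake steers beside 7.12 to 7.20 in the other groups. PFKM itself lay below the median row, and the part of skeletal muscle was not tested.

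SLC2A3, a high-affinity glucose transporter of lymphocytes and neurons, was the 1 gene of 33 called for gain, beside 6.06% of all rows. The set had 18 genes with a higher and 15 with a lower mean in high gain animals, and a median difference of 0.0053 beside -0.011 for all rows. SLC2A3 values were 10.74, 10.12, 10.17 and 10.81 in high gain-high intake and 10.45, 9.82, 11.20 and 10.92 in high gain-low intake steers. They were 9.98, 10.17, 10.19 and 10.96 in low gain-low intake and 9.85, 10.09, 9.67 and 9.92 in low gain-high intake steers. The low gain-high intake steers lay close together at the low end, but low gain-low intake steer 4 was the second highest and high gain-low intake steer 2 the second lowest of all, so the gain groups overlapped.

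The gain difference in SLC2A3 was 0.43 (1.34-fold, SE 0.20, 95% interval 0.0072 to 0.84, unadjusted limma P = 0.0466, adjusted P = 0.814, exact permutation P = 0.0693). It lost its call in 11 of the 16 fits that left out a steer. The low gain-high intake group was lower than the mean of the others, with a difference of -0.58 (SE 0.23, unadjusted limma P = 0.0222, adjusted P = 1, exact permutation P = 0.0253). This call was lost when steer 3 of that group was left out, with a difference of -0.51. In the same contrast T cell markers were higher in 1 of 8 and neutrophil markers in 2 of 10, with 0 of either called. The mean level of the T cell list ran from 11.64 to 13.28 in low gain-high intake steers and from 11.85 to 13.11 over the other groups, and that of the neutrophil list from 8.76 to 9.86 and from 8.48 to 10.80. Their part in the SLC2A3 difference was not tested. SLC2A1, the widely expressed basal glucose transporter, was just outside the threshold for the interaction, at 0.89 (SE 0.42, unadjusted limma P = 0.0505, exact permutation P = 0.0564). The hexokinases, which phosphorylate glucose on entry, were not called: HK1 was 0.34 higher with high intake (95% interval -0.04 to 0.71), and HK2 differed by -0.0036 (95% interval -0.18 to 0.17). HK3, the myeloid form, had a gain difference of 0.11 (95% interval -0.10 to 0.32).

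**Figure D2:**
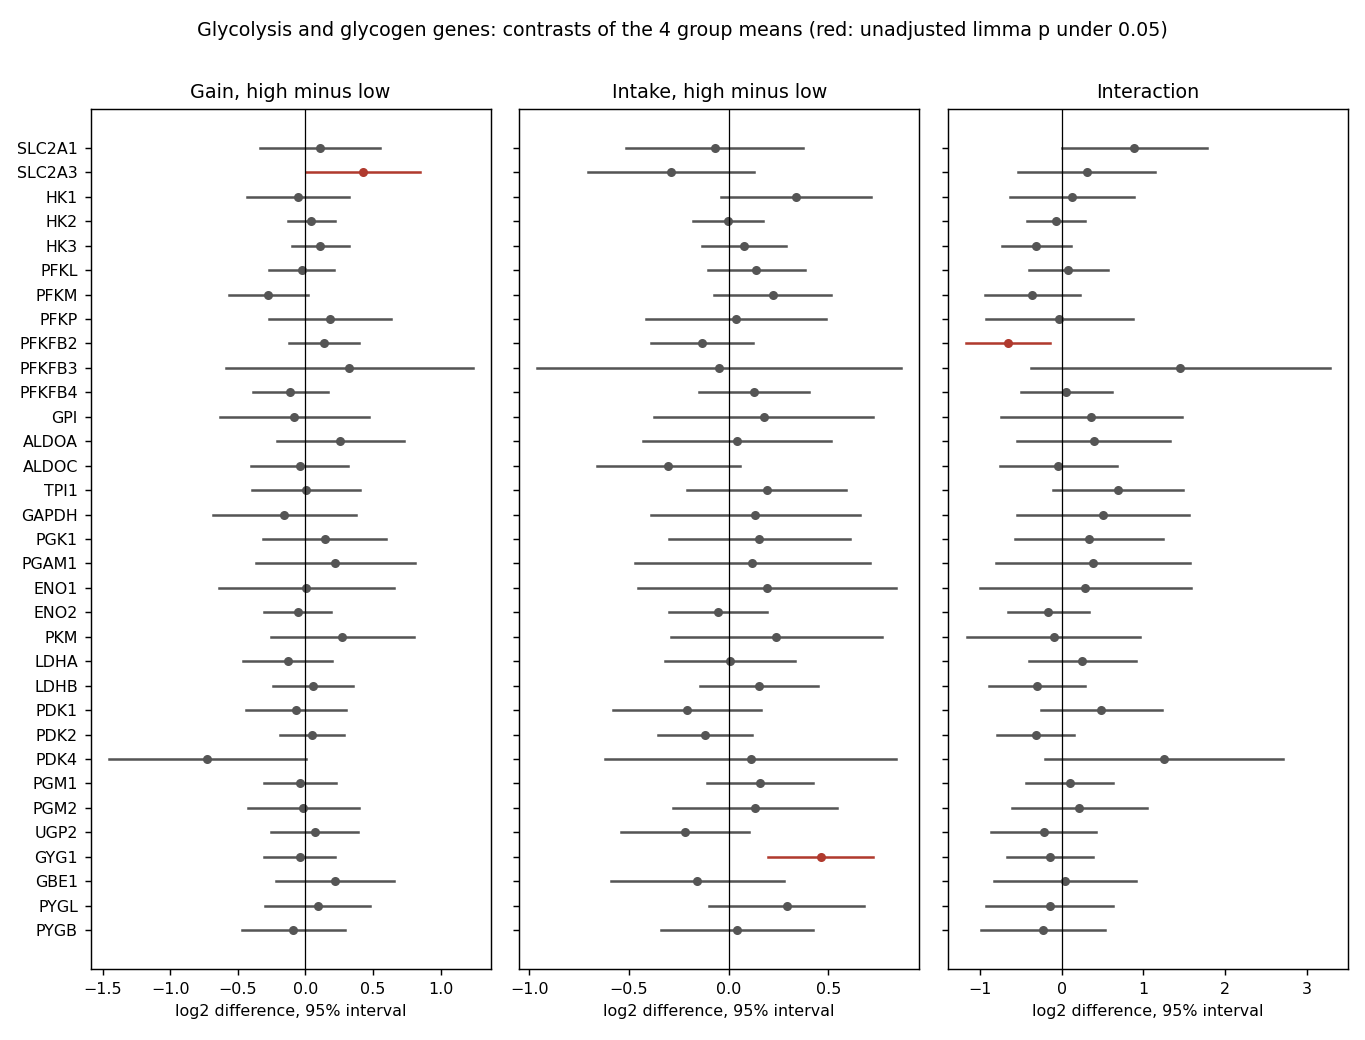
Differences on the log2 scale (horizontal axes, each panel with its own range) with 95% intervals for the 33 genes, for gain (high minus low), intake (high minus low) and the interaction. Red marks an unadjusted limma P under 0.05, which was reached by SLC2A3 in the gain panel (0.43), GYG1 in the intake panel (0.46) and PFKFB2 in the third (-0.66).

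The pyruvate dehydrogenase kinases hold pyruvate out of mitochondrial oxidation by phosphorylating the enzyme that admits it, and PDK4 is the form known to be induced by fasting and glucocorticoids. PDK4 was lower in high gain-low intake steers. The values in that group were 13.58, 13.68, 14.87 and 13.82, and in high gain-high intake steers 14.68, 14.72, 14.82 and 14.66. They were 14.30, 15.26, 15.69 and 16.10 in low gain-low intake steers and 16.28, 14.66, 13.45 and 14.91 in low gain-high intake steers. The lowest animal of all was low gain-high intake steer 3, and high gain-low intake steer 3 lay more than 1 unit above its group mates, so the groups overlapped. Means were 13.99 ± 0.59, 14.72 ± 0.07, 15.34 ± 0.77 and 14.82 ± 1.16 in that order (SD, n = 4).

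The difference of the high gain-low intake group from the rest in PDK4 was -0.97 (1.96-fold lower, SE 0.39, unadjusted limma P = 0.0260, adjusted P = 0.863, exact permutation P = 0.0412). It lost its call without high gain-low intake steer 1 (-0.84), steer 2 (-0.87) or steer 4 (-0.92). With PFKFB2, it made 2 of 33 genes called in this contrast, 6.06% of the set beside 5.59% of all rows. Smooth muscle markers were higher in these steers in 0 of 7 and adipocyte markers in 1 of 6, with 0 of either called. Skeletal muscle markers were higher in 5 of 8, with 1 called. Of the adipocyte and skeletal muscle markers, 0 lay above the median row. The part of these cells in the PDK4 difference was not tested. For gain, the PDK4 difference was -0.73 (95% interval -1.45 to 0.0015, unadjusted limma P = 0.0504, exact permutation P = 0.0848). PDK1, the form induced by hypoxia, and PDK2, the widespread form, were not called, with gain differences of -0.07 (95% interval -0.44 to 0.30) and 0.05 (95% interval -0.19 to 0.28).

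Lactate dehydrogenase A, which reduces pyruvate to lactate, was represented by 2 clusters annotated with its symbol that did not move together. As the average of both, LDHA was not called, with an interaction of 0.25 (unadjusted limma P = 0.430, exact permutation P = 0.425). In the first cluster (identifier 12832629) the values were 8.75, 7.93, 8.35 and 8.82 in high gain-high intake, 8.41, 8.28, 8.24 and 8.25 in high gain-low intake, 8.91, 8.32, 8.99 and 9.0 in low gain-low intake, and 8.44, 7.77, 8.16 and 8.17 in low gain-high intake steers. Of the low gain-low intake animals, 3 exceeded all of the others and steer 2 did not. In the second cluster (12910555) the low gain-low intake steers had 7.45, 7.11, 7.21 and 7.27, within the range of the other groups, 6.65 to 8.49.

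With clusters fitted apart, the first LDHA cluster was 0.51 higher in low gain-low intake steers than in the rest (SE 0.17, unadjusted limma P = 0.00833, adjusted P = 0.754, exact permutation P = 0.00989), where 5.48% of rows were called. Its interaction was 0.84 (SE 0.29, unadjusted limma P = 0.0111, adjusted P = 1, exact permutation P = 0.0176), where 4.65% of rows were called. The second LDHA cluster had differences of -0.17 (SE 0.22, unadjusted limma P = 0.448) and -0.34 (SE 0.39, unadjusted limma P = 0.392) in these contrasts, with exact permutation P = 0.473 and P = 0.442. The first cluster was also called by the F test (unadjusted limma P = 0.0298, permutation P = 0.0453), where 4.67% of rows were called with clusters kept apart. Its high minus low intake difference was -0.67 in low gain and 0.17 in high gain steers, and its lowest group mean was 8.13, in low gain-high intake steers. Which part of the gene, or which pseudogene, each cluster covers was not examined. Whether both clusters report LDHA, and so what their average measures, was therefore not settled. The heart-type subunit LDHB, which favors the reverse reaction, had an interaction of -0.30 (95% interval -0.89 to 0.29).

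The enzymes common to all glycolytic flux were not called in any contrast: GPI, ALDOA, ALDOC, TPI1, GAPDH, PGK1, PGAM1, ENO1, ENO2 and PKM gave 0 of 10. GAPDH, which carries out the oxidative step and is often used as a reference gene, had values of 16.59, 15.37, 16.43 and 17.25 in high gain-high intake and 16.27, 15.65, 15.55 and 16.63 in high gain-low intake steers. It had 16.64, 16.30, 16.22 and 16.57 in low gain-low intake and 16.35, 15.58, 16.65 and 16.66 in low gain-high intake steers. The high gain-high intake animals spanned the widest range and the low gain-low intake animals the narrowest, which lay within it. The GAPDH difference was -0.15 for gain (95% interval -0.68 to 0.37) and 0.13 for intake (95% interval -0.39 to 0.66). Both intervals include 0, and true differences of any size within them are not excluded. The enolase ENO1, of the step before pyruvate kinase, had differences of 0.0053 (95% interval -0.64 to 0.65) and 0.19 (95% interval -0.45 to 0.84).

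In low gain-low intake steers 1 of 33 genes was called, GYG1, beside 5.49% of all rows, and in high gain-high intake steers none was, beside 3.48%. In low gain-high intake steers 3 of 33 were called, PFKM, GYG1 and SLC2A3, which is 9.09% of the set beside 4.45% of all rows. The last count depended on single arrays. It was 1 without low gain-high intake steer 3, 1 without steer 4 and 5 without steer 2. When high gain-high intake steer 4 and low gain-high intake steer 2 were both left out, 8 of 33 genes were called (24.2%), beside 8.07% of all rows. Of these, 5 were higher in low gain-high intake steers, namely HK1 (0.50), PFKM (0.59), GPI (0.53), ENO1 (0.58) and GYG1 (0.56), and 3 were lower, with differences of -0.61 for SLC2A3, -0.54 for PDK1 and -0.64 for GBE1. The lowest adjusted P among them was 0.453, for GYG1 in limma. In the same setting 5 of 33 genes were called by the F test (beside 6.91% of rows), 4 with gain (9.73%), 3 with intake (4.43%) and 2 in the interaction (5.29%). It called 3 in high gain-low intake (6.57%), 3 in low gain-low intake (6.5%) and 0 in high gain-high intake steers (4.3%). The setting was chosen after the data were seen, and with all 16 arrays ENO1 and GPI differed by 0.03 and 0.05 in the same contrast. It leaves out arrays that lay far from their group mates in these data, which by itself favors a smaller spread within groups.

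**Figure D3:**
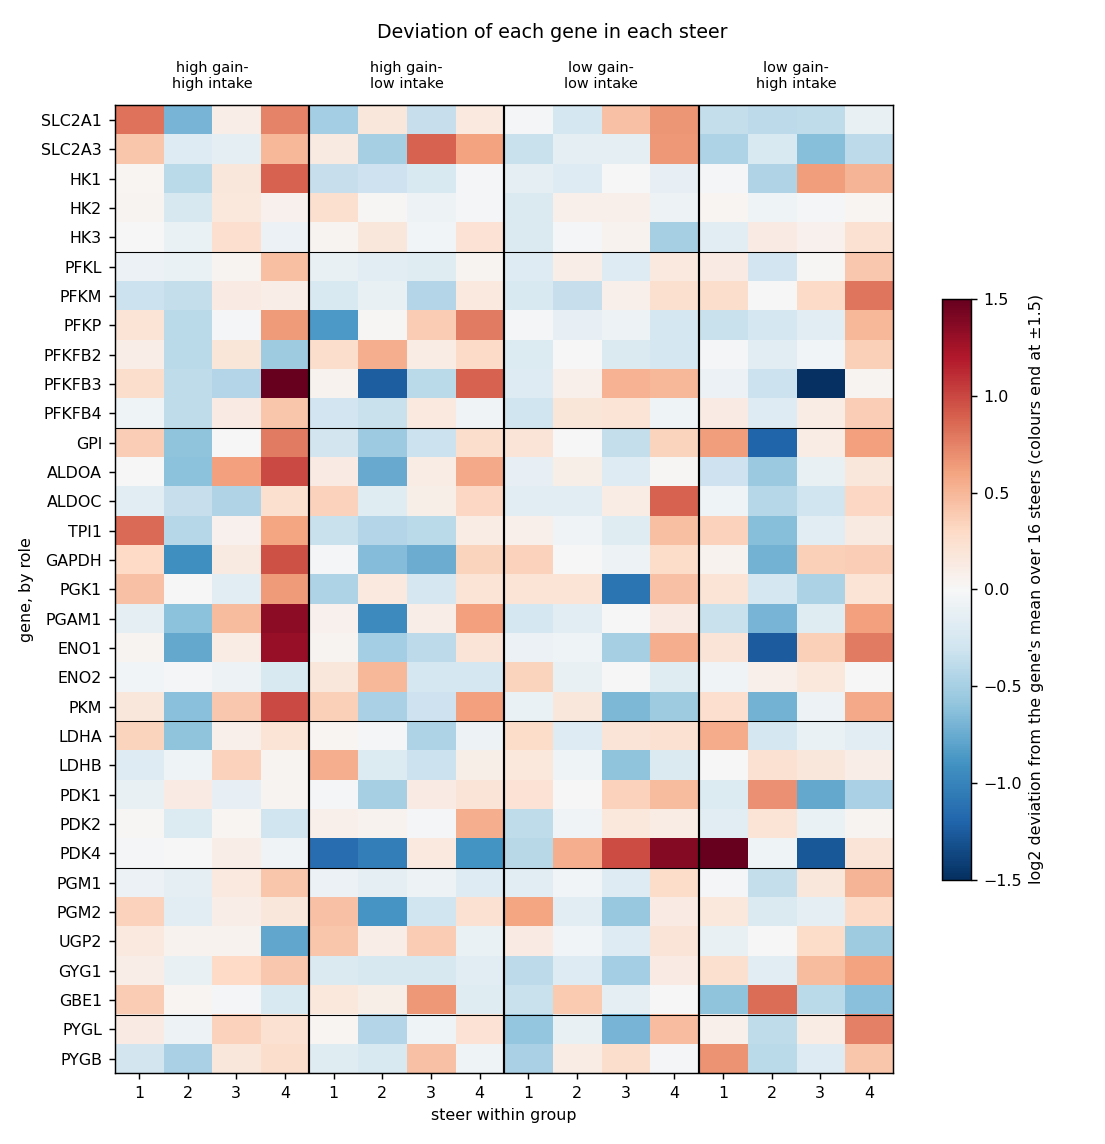
Log2 deviation of each of the 33 genes (rows, ordered by role) from its mean over the 16 steers (columns, by group), with colors ending at -1.5 and 1.5. The column of high gain-high intake steer 4 is red for most of the shared enzymes and that of low gain-high intake steer 2 is blue, with mean deviations of 0.76 and -0.64 over these enzymes.

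An F statistic under 1 means that the groups differed less than the spread of animals within them would give on average. It was found for 8 of the 10 shared enzymes (80%), beside 60.6% of the 33 genes and 59.4% of all rows. The shared enzymes varied together, as given below, so they are not separate counts. High gain-high intake steer 4 had the highest value of all 16 animals for 11 of the 33 genes. Low gain-high intake steer 2 had the lowest value for 7 genes and high gain-high intake steer 2 for 6. The mean deviation of the 10 shared enzymes from their own means was 0.76 in high gain-high intake steer 4, 0.38 in low gain-high intake steer 4, -0.64 in low gain-high intake steer 2 and -0.50 in high gain-high intake steer 2. The 2 extreme animals are those with the lowest array weights, while high gain-high intake steer 2 had a weight of 0.929. As the weights come from the spread of these same data, this overlap is partly built in. The part of array quality in these deviations was not tested.

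**Figure D4:**
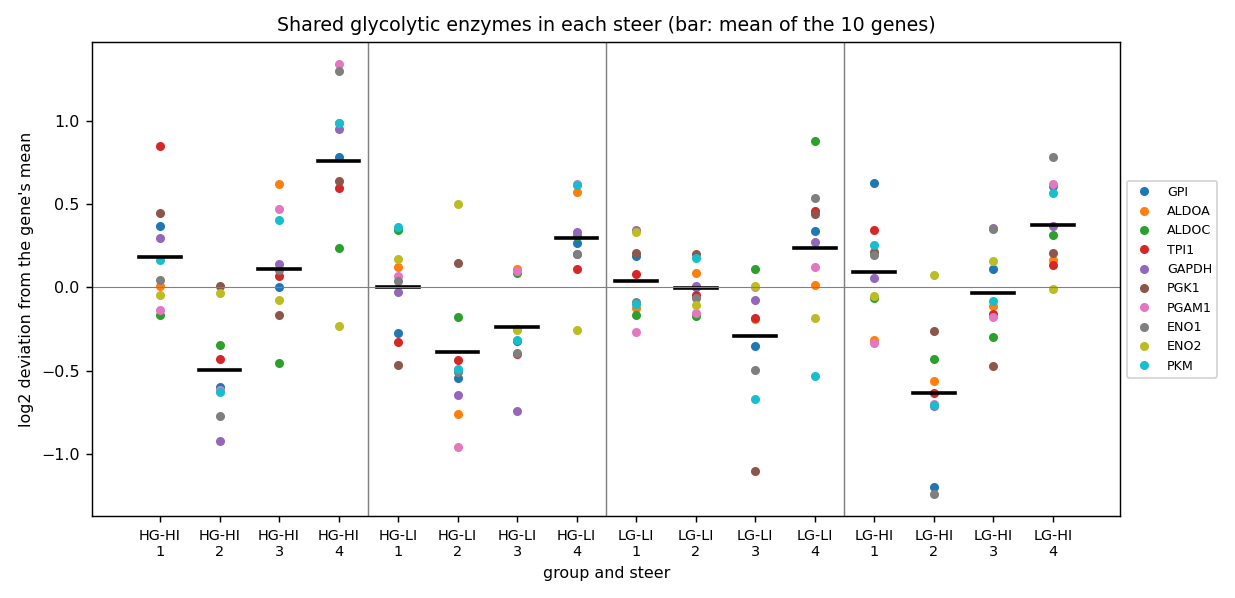
Log2 deviation of the 10 shared glycolytic enzymes from each gene's mean over 16 steers (vertical axis), for each steer by group (horizontal axis). Points are genes, and the bar is their mean, which runs from -0.64 in low gain-high intake steer 2 to 0.76 in high gain-high intake steer 4, both high intake animals.

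Within groups, the SD of PFKFB3 was 0.955, at the 98.4th percentile of all rows. PDK4 (0.758), ENO1 (0.670) and PGAM1 (0.610), a phosphoglycerate mutase, followed, with PGAM1 at the 92.6th percentile. The hexokinases HK2 (0.133) and HK3 (0.180) were among the steadiest, and the median of all rows was 0.280.

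The shared enzymes varied together between animals of a group. After the group means were taken away, the 36 pairs among the 9 shared enzymes other than ENO2 correlated between 0.18 and 0.95 over the 16 steers, with a median of 0.67, and all 36 were above 0. Over the 14 steers without the 2 arrays of lowest weight they ran from -0.05 to 0.93, with a median of 0.62 and 35 above 0. With ENO2, which has a low signal, 36 of 45 pairs were above 0 and the lowest was -0.60. These correlations describe arrays that share RNA quality, cell make-up and normalization. With GAPDH as the reference, 18 of the other 32 genes had a correlation over 0.5 (56.2%), beside 13.7% of all rows. Without the 2 arrays of lowest weight these shares were 31.2% and 8.79%. All rows were not matched to the set by level, and 25 of the 33 genes lay above the median row. The closest to GAPDH were ENO1 (0.89), PKM (0.86), GPI (0.85), HK1 (0.82) and ALDOA (0.81), and without those arrays they were 0.82, 0.76, 0.77, 0.61 and 0.72.

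GYG1 varied with glycolytic as well as glycogen genes. Its closest partners within groups were PGM1 (0.94), ENO1 (0.89), PYGL (0.86), PFKL (0.85) and GPI (0.76), over the same 16 steers. Without the 2 arrays of lowest weight these were 0.90, 0.85, 0.88, 0.75 and 0.47. GBE1 (-0.49) and PDK1 (-0.52) had negative values against GYG1 that rested on those arrays, and without them GBE1 was at 0.14 and PDK1 at -0.11. Of the other 32 genes, 43.8% had a correlation with GYG1 over 0.5, beside 10.2% of all rows, which were again not matched by level. Without the 2 arrays of lowest weight the shares were 25% and 5.44%. The same held against GAPDH, where GBE1 went from -0.58 to -0.28 and UGP2 from -0.42 to -0.04 when the 2 arrays were left out.

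**Figure D5:**
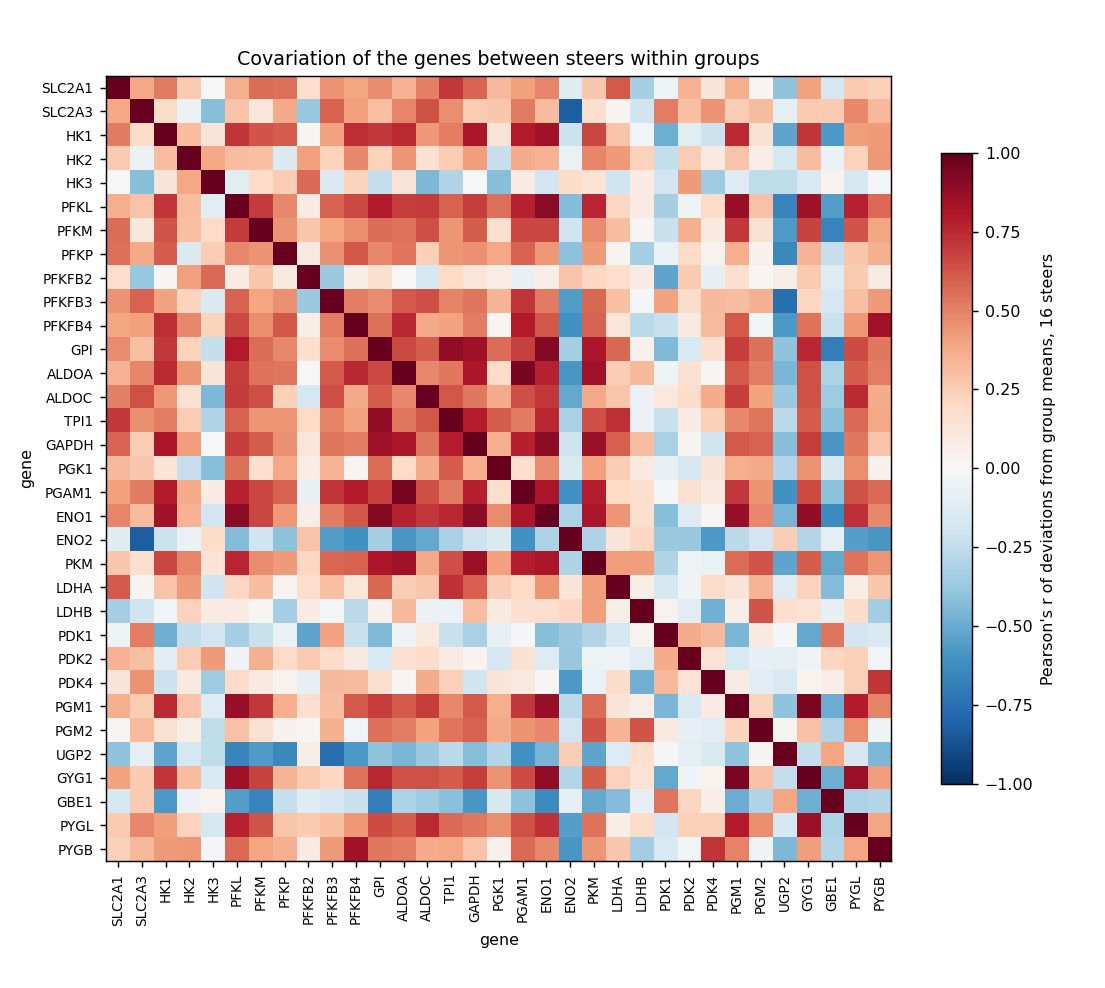
Pearson correlation between the 33 genes (both axes, ordered by role) of their deviations from the group means over 16 steers, on a color scale from -1 to 1. The block of shared enzymes is red apart from ENO2, and UGP2 and GBE1 are blue against it, with medians of -0.42 for either, which were -0.12 and -0.08 without the 2 arrays of lowest weight.

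Other genes of glucose handling were taken from 7 further lists, on which 119 of 129 genes were found. For gain, 5 were higher and 3 lower with high gain (6.72%, beside 6.06% of all rows), and for intake 3 were higher and 2 lower with high intake (4.20%, beside 3.4%). The interaction was positive in 4 and negative in 2 (5.04%, beside 4.64%). These shares are close to those of all rows, and 0 of the genes passed adjustment in limma. The pentose phosphate list had 0 of 7 called for gain, intake or their interaction.

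On the pyruvate list, MPC1, a subunit of the carrier that brings pyruvate into mitochondria, was lowest in low gain-low intake steers. Its group means were 13.09 ± 0.29 with high and 12.98 ± 0.23 with low intake among high gain steers, and 12.83 ± 0.40 with high and 12.23 ± 0.41 with low intake among low gain steers (SD, n = 4). The gain difference was 0.51 (SE 0.16, unadjusted limma P = 0.00652, adjusted P = 0.746, exact permutation P = 0.0151). PDP1, the phosphatase that reverses the action of the PDK enzymes, had group means of 9.39 ± 0.30, 9.06 ± 0.24, 9.10 ± 0.18 and 9.59 ± 0.28 in the same order (SD, n = 4). Its interaction was 0.82 (SE 0.25, unadjusted limma P = 0.00548, adjusted P = 1, exact permutation P = 0.00606). SLC16A3, an exporter of lactate, was lower in high gain animals, with a gain difference of -0.26 (SE 0.09, unadjusted limma P = 0.0130, adjusted P = 0.765, exact permutation P = 0.0134). Its group means were 6.99 ± 0.10, 6.90 ± 0.22, 7.33 ± 0.19 and 7.07 ± 0.08 in the same order (SD, n = 4). The low gain-high intake group was thus the highest, and the signal lay near the lower quartile of rows, 7.04.

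Among regulators of glycogen, GSK3A, a kinase that inactivates glycogen synthase, was 0.34 higher with high gain (SE 0.13, unadjusted limma P = 0.0207, exact permutation P = 0.0331). It was also 0.29 higher with high intake (SE 0.13, unadjusted limma P = 0.0397, exact permutation P = 0.0727). PPP1R3F, a subunit that directs a phosphatase to glycogen, was lower with high gain, with a difference of -0.29 (SE 0.09, unadjusted limma P = 0.00699, exact permutation P = 0.0107). Its group means were 7.29 with high and 7.35 with low intake among high gain steers, and 7.78 and 7.44 among low gain steers. Its interaction was -0.41 (SE 0.18, unadjusted limma P = 0.0417, exact permutation P = 0.0928). PGM3, a phosphoglucomutase relative that acts on amino sugars rather than in glycogen synthesis, was highest in low gain-low intake steers, with an interaction of 0.96 (SE 0.38, unadjusted limma P = 0.0231, exact permutation P = 0.0634). On the hypoxia list, 10 of 24 genes had a higher and 14 a lower mean with high gain. KDM3A, a histone demethylase induced by hypoxia, was lower with high intake, with a difference of -0.37 (SE 0.14, unadjusted limma P = 0.0153, exact permutation P = 0.0149), and CA12, a carbonic anhydrase, was lower with high gain, at -0.51 (SE 0.24, exact permutation P = 0.0569). EGLN1 and EGLN3, prolyl hydroxylases that mark hypoxia-inducible factor for degradation, were 0.27 (SE 0.11, exact permutation P = 0.0180) and 0.66 (SE 0.26, exact permutation P = 0.0305) higher with high gain. Of the upstream regulators, FOXO1, a transcription factor that insulin holds out of the nucleus, had an interaction of 1.05 (SE 0.40, unadjusted limma P = 0.0203, exact permutation P = 0.0183). MYC, a transcription factor that raises glycolytic genes, had one of 1.05 (SE 0.49, exact permutation P = 0.0550). These were 2 of 18 regulators called for the interaction (11.1%, beside 4.64% of all rows), and 0 of 18 were called for gain or intake.

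On the list of other glycolysis genes, TIGAR, a phosphatase that lowers the activator made by the PFKFB enzymes, was 0.29 higher with high intake (SE 0.12, unadjusted limma P = 0.0280, exact permutation P = 0.0241). ADPGK, a glucokinase that uses ADP, was 0.36 higher with high gain (SE 0.15, unadjusted limma P = 0.0280, exact permutation P = 0.0284). FBP2, a muscle-type fructose bisphosphatase of gluconeogenesis, had an interaction of -0.54 (SE 0.23, unadjusted limma P = 0.0305, exact permutation P = 0.0225).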

How the data were processed

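Spleen RNA of 16 steers, 4 per group, was measured on Affymetrix Bovine 1.1 ST arrays. The authors applied GCCN and SST probe corrections and RMA in Affymetrix Expression Console and deposited 1 log2 value per transcript cluster and steer. Transcriptome Analysis Console appears beside it in the submitters' processing notes. Program versions and the genome build were not given in the sources used here.

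Of 26773 features, 1776 were left out because their identifiers precede those the platform table annotates. Of the other 24997, 18790 had 1 platform symbol, 385 several and 5822 were not listed. Clusters of a gene were averaged, which gave 24651 rows and 18444 named genes. All 33 members matched the current RefSeq table by Entrez identifier. No sequences or coordinates were used.

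Rows were fitted in R 4.3.3 with lmFit and eBayes of limma 3.58.1, with 4 group means, as in the study's model but with moderated variances, and adjusted by Benjamini-Hochberg over all rows. An F test and 7 contrasts were taken. Single genes had a two-sided exact permutation test with steers shuffled over all groups, over 1820 ways to choose 4 of 16 steers (smallest P 0.000549) or 12870 ways to choose 8 (smallest P 0.000155). The scripts were tested on simulated data. Genes named with values in every steer are those with an unadjusted limma P under 0.05, together with GAPDH, the LDHA clusters and PFKFB3, chosen for display after their values were seen. Other pathway genes named are at most 4 per list, by smallest P. The members and lists were chosen with earlier results of these data known. The number of arrays limits the precision, and counting depth does not apply. Alternatives were another moderation, array weights, 2 normalizations, filters, clusters kept apart and leaving out steers.

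Slaughter took place over successive days with an animal of every group on each, but the day of a steer is not in the labels.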

Additional observations from a re-analysis of the deposited data

Results flagged for a closer look

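Of 132 sets of 4 values, the 33 genes in each of 4 groups, 5 held an animal far from its group mates by Dixon's test at the 95% level (3.79%), and chance marks about 1 in 20. SLC2A1 was 8.86 in low gain-high intake steer 4, where the others lay between 8.59 and 8.62. PGK1, a phosphoglycerate kinase, was 10.29 in low gain-low intake steer 3, with the others between 11.59 and 11.83. LDHA, as the average of its clusters, was 7.72 in low gain-low intake steer 2, with the others between 8.10 and 8.18. UGP2 was 10.13 in high gain-high intake steer 4, with the others between 10.96 and 11.06, and GBE1 was 11.83 in low gain-high intake steer 2, with the others between 10.36 and 10.59. The last pair fall on the arrays of lowest weight.

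The intake difference of PFKFB2 was not the same in high and low gain steers, with an interaction of -0.66 on the log2 scale (unadjusted limma P = 0.0154, adjusted P = 1, exact permutation P = 0.0180).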

How the results depend on the processing

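No member passed an adjusted P under 0.05 in limma in any of the 9 other settings or the 16 fits without 1 steer (lowest adjusted P 0.394), and 0 of 11 single differences changed sign. With clusters kept apart, however, HK1 and LDHA entered these counts as their brighter cluster only. The second LDHA cluster had the opposite sign to the average in the interaction and in low gain-low intake steers, as given above, and is not in the count. Counts of members at an unadjusted P under 0.05 were small and moved. The F test count of 2 was 1 with ordinary least squares, array weights or rows above the median level, 3 with clusters kept apart and 5 without both arrays of lowest weight. For gain, 1 became 2 with an intensity trend or array weights, 0 with ordinary least squares or rows above the median level, and 4 without both arrays. For intake, 1 became 3 without both arrays. For the interaction, 1 became 2 with the trend, array weights, quantile normalization, median centring, clusters kept apart or both arrays left out, and 0 with rows above the median level, where PFKFB2 is not in the fit. In high gain-low intake steers 2 became 1 with rows above the median level, and 3 with array weights, quantile normalization or both arrays left out. In low gain-low intake steers 1 became 2 with ordinary least squares or clusters kept apart, and 3 with array weights, quantile normalization or both arrays left out. In low gain-high intake steers 3 became 2 with rows above the median level, 4 with clusters kept apart and 8 without both arrays. Without 1 steer, the counts ranged from 1 to 5 (F test), 0 to 3 (gain), 1 to 4 (intake), 1 to 3 (interaction), 0 to 3 (high gain-high intake), 1 to 4 (high gain-low intake), 0 to 3 (low gain-low intake) and 1 to 5 (low gain-high intake). The GYG1 intake difference (0.41 to 0.54) and the PFKFB2 interaction (-0.77 to -0.54) kept their calls in all 16. The SLC2A3 gain difference also lost its call with ordinary least squares, quantile normalization, rows above the median level and without both arrays (0.40 to 0.43). The cause of these changes was not tested. No paired analysis was possible because the labels give the groups no shared replicate number or slaughter day.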
